A study of Mus musculus with 10 samples.

Results

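The forkhead and SOX genes encode 2 families of transcription factors, and 42 of the 10010 listed regions of open chromatin belonged to them. Members were the mm10 RefSeq protein-coding genes whose symbol begins with Fox (leaving out Foxred1 and Foxred2) or with Sox and a digit, 44 forkhead and 19 SOX genes. A region was taken when it overlapped the span of such a gene, or when it lay outside every protein-coding span and such a gene was the nearest within 100 kb. By this rule 20 of the 63 genes had at least 1 region, with 28 regions at 15 forkhead genes and 14 regions at 5 SOX genes. Chromatin accessibility had been measured by ATAC-seq, in which a transposase inserts sequencing adapters into open DNA, in atrial nuclei of mice aged 8 to 12 weeks. The Tbx5G125R animals carried the p.G125R substitution in 1 copy of Tbx5, introduced with CRISPR-Cas9, and the Control animals did not (n = 4 animals per group). The samples were labelled as atria with no side given, so left and right atria cannot be told apart. Nuclei were sorted on PCM1, a protein that marks cardiomyocyte nuclei. Control animals 1 and 3 had a pair of libraries each, whose counts were summed.

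Forkhead factors bind DNA through a winged-helix domain, and several of them act as pioneer factors that open closed chromatin. The FOXO class lies downstream of insulin and growth factor signalling, since phosphorylation by the kinase AKT moves FOXO proteins out of the nucleus, and in muscle it drives genes of protein breakdown, autophagy and stress resistance. FOXP proteins act mainly as repressors and pair with each other. SOX factors bind the minor groove through an HMG box and bend the DNA, and usually act with a partner factor. Group C members take part in outflow tract development in mice, and group D members, which lack a transactivation domain of their own, are known best from cartilage and from skeletal muscle fibre types. Tbx5 is a T-box factor that is itself needed for atrial gene expression.

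For the 63 genes the RefSeq table used here (GRCm38.p6) held 51 promoter sequences, more than 1 for some genes and none for others. Among the genes with a region, Foxk1, Foxo6, Foxh1, Foxf1, Foxl1 and Foxp2 had no promoter sequence. A promoter window ran from 250 bases before to 50 after a start, and 7 of the 51 were overlapped by a region of their own gene. These were the promoters of Foxo3, Foxo1, Foxj3, Foxd2, Sox12, Sox6 and Sox4. The 250 bases before the start are shown for 4 of them, 2 from each family, because regions over gene starts described further on overlap these bases. Each of these regions is longer than 250 bases, so its change cannot be placed on the bases shown. Capitals mark matches to the GC box of SP and KLF factors (GGGCGG, or CCGCCC on the other strand), to the MEF2 motif (CTA and TAG with any 4 bases between them) and to the T-box half-site (AGGTGT, or ACACCT on the other strand). No marked match overlapped another. The Foxo3 promoter (chr10:42276696-42276945, minus strand) held 5 GC boxes and had a GC content of 76.4%. The Foxo1 promoter (chr3:52268087-52268336, plus strand) held 2 GC boxes at a GC content of 56%. In the Sox6 promoter (chr7:116031048-116031297, minus strand), whose far end reached past its region, there were 4 GC boxes, 1 MEF2 motif and 1 T-box half-site, at a GC content of 60.8%. The Sox4 promoter (chr13:28953700-28953949, minus strand) held none of the motifs searched and had a GC content of 50.8%.
Foxo3: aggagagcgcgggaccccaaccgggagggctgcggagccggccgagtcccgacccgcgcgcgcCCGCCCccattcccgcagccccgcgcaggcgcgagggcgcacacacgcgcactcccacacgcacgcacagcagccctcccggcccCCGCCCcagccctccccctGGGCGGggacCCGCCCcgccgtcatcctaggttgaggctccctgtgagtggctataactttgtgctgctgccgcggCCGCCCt
Foxo1: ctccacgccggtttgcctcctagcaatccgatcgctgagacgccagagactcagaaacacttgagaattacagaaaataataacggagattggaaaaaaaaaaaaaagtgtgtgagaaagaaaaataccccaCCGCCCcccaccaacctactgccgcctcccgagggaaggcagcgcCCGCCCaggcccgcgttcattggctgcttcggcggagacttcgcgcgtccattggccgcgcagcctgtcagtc
Sox6: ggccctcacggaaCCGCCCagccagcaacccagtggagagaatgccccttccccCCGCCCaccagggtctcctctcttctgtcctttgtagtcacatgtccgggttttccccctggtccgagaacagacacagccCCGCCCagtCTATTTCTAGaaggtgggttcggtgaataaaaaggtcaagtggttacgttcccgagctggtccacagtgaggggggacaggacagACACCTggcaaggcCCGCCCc
Sox4: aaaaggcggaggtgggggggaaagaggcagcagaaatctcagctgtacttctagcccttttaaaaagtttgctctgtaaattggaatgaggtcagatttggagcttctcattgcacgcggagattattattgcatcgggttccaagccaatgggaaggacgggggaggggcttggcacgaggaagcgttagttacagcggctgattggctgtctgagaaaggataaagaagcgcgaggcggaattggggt

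Across the 7 promoters with a region, the GC box occurred in 6, against 31 of the 51 member promoters (60.8%) and 42.6% of the 21263 promoters in the table, and the median GC content of these 7 was 64.4%, against 60.8% over the 51 member promoters and 55.6% over all promoters. The T-box half-site was found in 1 of the 7 (Sox6) and in 11.0% of all promoters. The MEF2 motif occurred in 1 of 7 (Sox6) and in 3.06% of all. A forkhead motif (GTAAACA, both strands) was present in 1 of 7 (Sox12) and in 2.62% of all, and the SOX motif (AACAAT, both strands) in none of the 7 and in 8.22% of all. These are matches of letters in a short window and were not tested.

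Accessibility was higher in Tbx5G125R animals (gained) at 39 of the 42 regions and lower (lost) at 3, a gained share of 92.9%, where 88.4% of all listed regions were called higher and 11.6% lower. The table holds only regions that had already been selected for a difference between these same animals, so that every region was called by construction. These counts, and the adjusted p-values given below, are therefore a description. All 14 SOX regions were gained, and the 3 lost regions lay near Foxo3 and Foxp2. The median gained region had a log2 fold change of 0.74 (quartiles 0.62 and 0.89), beside 0.75 (quartiles 0.63 and 0.97) over all gained regions. It was 0.74 for the 25 gained forkhead regions and 0.77 for the 14 SOX regions. A log2 fold change of 1 or more was reached by 6 of the 39, or 15.4%, against 22.9% of all gained regions and 20.7% of those with a gene by the same rule. The groups' animals were fully separated at 37 of the 39 gained regions (95.3% of all gained regions) and at 1 of the 3 lost regions (73.1% of all lost regions). Fewer nuclei of a kind and less open chromatin per nucleus cannot be told apart in such bulk samples.

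**Figure D1:**
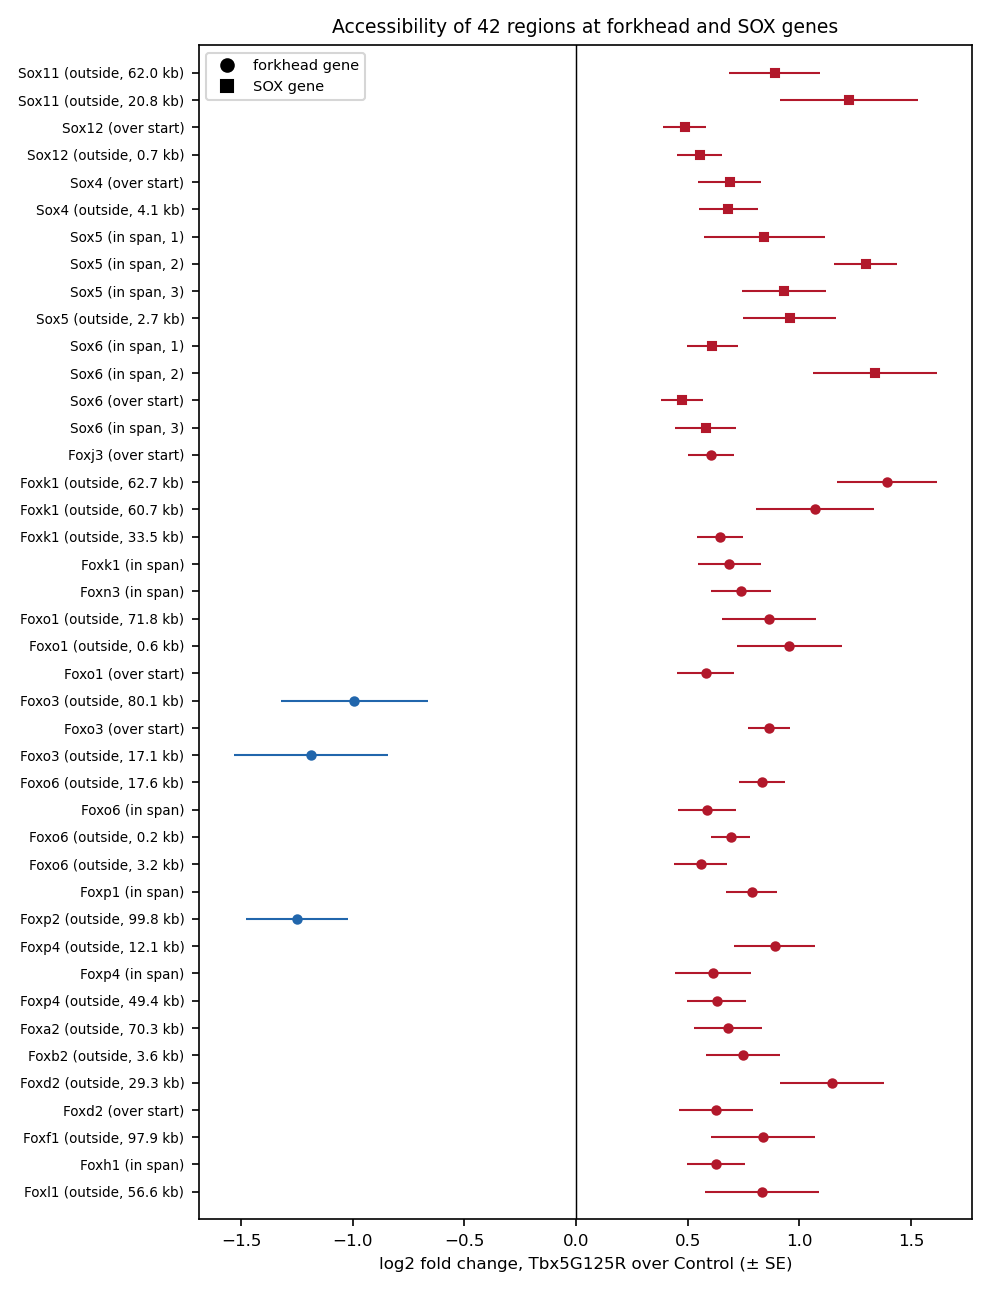
Log2 fold change of accessibility, Tbx5G125R over Control, for each of the 42 regions at forkhead (circles) and SOX (squares) genes, with the standard error as a bar; the position is given beside each gene and numbers regions inside a span in genome order. The 39 gained regions (red) lie between 0.47 and 1.39 and the 3 lost regions (blue) between -1.25 and -0.99, and 18 of the 39 fall below 0 when every animal is scaled by the table's median ratio.

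These directions depend on how the genotypes are scaled to each other, because the table gives no library totals. The values here are scaled counts, which are the counts of reads per region divided by 1 factor per animal, and the factor between the genotypes (0.29 on the log2 scale) was taken from the deposited fold changes as a single number. When every animal was instead scaled by its median ratio over the whole table (the table median scale), the middle of all log2 fold changes moved to 0.03, against 0.72. On that scale 21 of the 42 regions were higher and 21 lower, and 2 were called higher and 3 lower by edgeR's quasi-likelihood test, where 8.55% of all regions were called higher and 12.3% lower. The 2 that remained called higher lay 62747 bp from Foxk1 and inside Sox5, and the 3 called lower were the lost regions near Foxo3 and Foxp2. A value on that scale is close to the change of a region relative to the typical listed region. By construction it places about as many of all listed regions above 0 as below, and so does edgeR's TMM scale (middle at 0.01). Counts of regions that stayed above 0 on these scales are therefore only a description. The matching share of all gained regions was not counted.

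**Figure D2:**
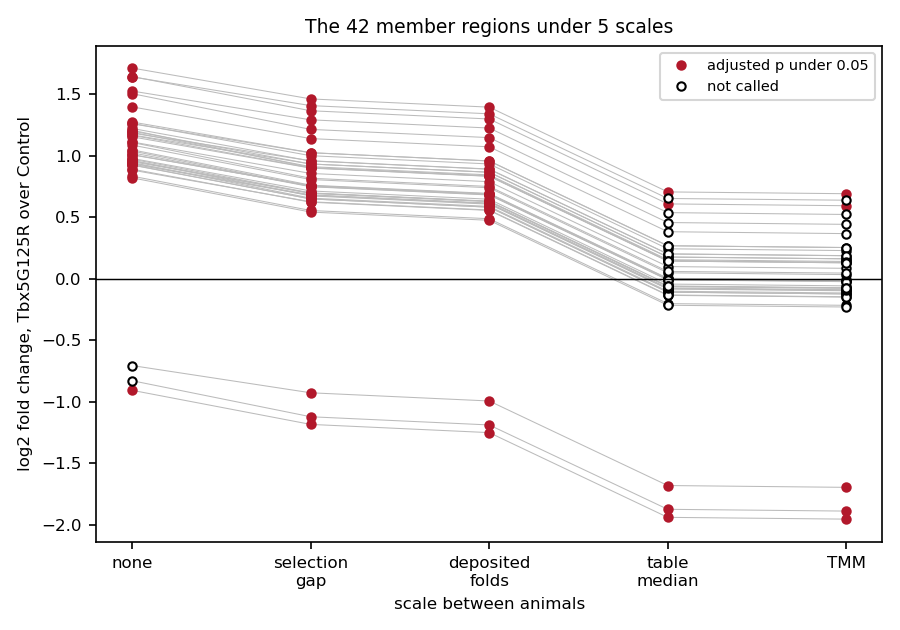
Log2 fold change, Tbx5G125R over Control, of the 42 regions (one line each) under 5 scales between animals, from no scaling to edgeR's TMM; filled points have an adjusted p under 0.05 and open points do not. The 3 lost regions are below 0 on every scale shown, while of the 39 gained regions 21 lie above 0 on the table median scale and 20 on the TMM scale.

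Counts summed over the listed regions ran from 1716962 to 2414261 in the Tbx5G125R animals and from 630392 to 2776475 in the Control animals, while total sequencing depth is unknown. Control replicate 2 had the fewest counts and was the lowest Control animal in 19 of the 42 regions. Its median deviation from its group mean over these regions was -0.10 on the log2 scale, beside -0.006 over all listed regions. For the other 7 animals the deviation over the 42 regions lay between -0.05 and 0.05. Without Control replicate 2, all 42 regions were called in the same direction.

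The FOXO class had 10 regions at 3 of its 4 genes, 8 gained and 2 lost, and 5 of the 8 gained regions stayed above 0 on the table median scale (4 of 8 with TMM). Foxo3 was the only one of the 20 genes with regions in both directions. It encodes the FOXO factor studied most in atrophy and longevity. Over its start lay a region of 2250 bp (chr10:42276251-42278500) that covers the promoter printed above. Scaled counts there were 599.8, 531.1, 474.6 and 553.8 in Tbx5G125R animals, against 270.4, 313.4, 295.2 and 315.5 in Control animals. All 4 Tbx5G125R animals were above every Control animal. The mean was 540 ± 52.0 in Tbx5G125R and 299 ± 20.9 in Control animals (SD, n = 4 each), a log2 fold change of 0.86 ± 0.09 (SE; adjusted p = 1.54e-08 by edgeR), and 0.18 on the table median scale.

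On either side of the gene the direction was the opposite one. A lost region lay 17056 bp beyond the start (chr10:42293751-42294250), with 15250 bp between it and the gained region. It held 27.6, 11.5, 16.0 and 13.5 scaled counts in Tbx5G125R animals, against 40.6, 62.7, 26.0 and 32.9 in Control animals. Tbx5G125R replicate 1 exceeded the lowest Control animal, so the groups overlapped. The log2 fold change was -1.19 ± 0.34 (SE; adjusted p = 0.00188 by edgeR). The other lost region lay 80095 bp beyond the far end of the gene (chr10:42101251-42101750), at 19.7, 10.6, 18.8 and 15.5 scaled counts in Tbx5G125R animals and 34.2, 16.2, 39.3 and 30.4 in Control animals. Here the groups overlapped through Control replicate 2, and the log2 fold change was -0.99 ± 0.33 (SE; adjusted p = 0.00547 by edgeR). Both lost regions rest on few reads, with lowest counts per animal of 12 and 7, and both lost their call when the animals were not scaled (adjusted p = 0.0855 and 0.148 by edgeR).

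Foxo1, the FOXO factor that mediates much of the response to low insulin signalling, had 3 gained regions. At the one over its start (chr3:52268001-52268750), which covers the promoter printed above, Tbx5G125R animals had 173.6, 186.7, 203.9 and 194.3 scaled counts and Control animals 143.3, 109.1, 128.5 and 116.6. The groups did not overlap, and the log2 fold change was 0.58 ± 0.13 (SE; adjusted p = 0.00013 by edgeR), and -0.11 on the table median scale. A separate region 250 bp further upstream (chr3:52267251-52267750, 587 bp outside the span) changed more, with 73.7, 77.9, 52.6 and 46.4 scaled counts in Tbx5G125R animals and 33.7, 23.2, 31.6 and 36.7 in Control animals. Again every Tbx5G125R animal was above every Control animal, with a log2 fold change of 0.96 ± 0.24 (SE; adjusted p = 0.00048 by edgeR). The remaining region, 71837 bp upstream, had a log2 fold change of 0.86 ± 0.21 (SE).

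Foxo6, a FOXO gene known best from brain and liver, had 4 gained regions, and 2 of them stayed above 0 on the table median scale (1 with TMM). The greatest change was 17578 bp outside the span, within the span of the long noncoding RNA gene Gm36134 (chr4:120248501-120249500). Its scaled counts were 345.9, 331.0, 360.8 and 343.1 in Tbx5G125R animals, a narrow range, against 178.7, 171.8, 213.6 and 202.7 in Control animals. This region had a log2 fold change of 0.83 ± 0.10 (SE; adjusted p = 1e-07 by edgeR). The region with the most reads, 240 bp outside the span, averaged 585 ± 37.5 scaled counts in Tbx5G125R animals and 363 ± 27.1 in Control animals (SD, n = 4 each). The other 2, one in the span and one within Foxo6os, a long noncoding RNA gene, had log2 fold changes of 0.59 ± 0.13 and 0.56 ± 0.12 (SE). Foxo4, on the X chromosome, had no region.

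**Figure D3:**
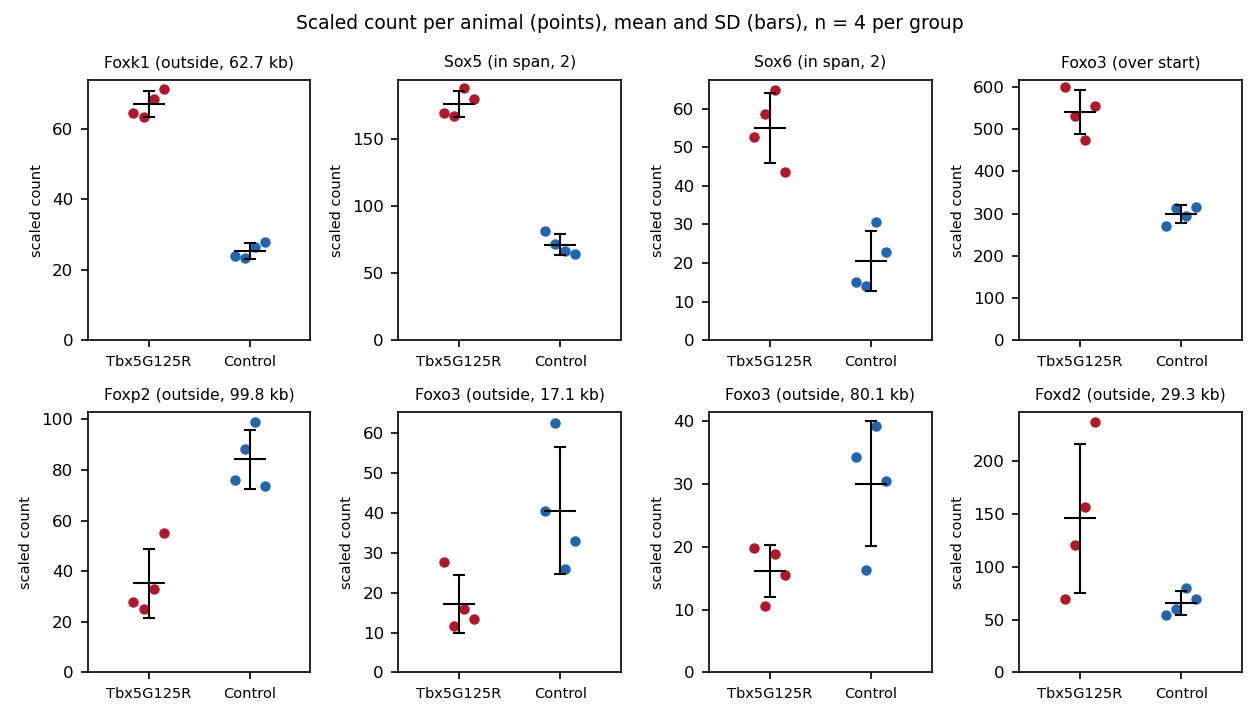
Scaled count of each animal (points) with the group mean and SD (bars, n = 4 per group), Tbx5G125R left of Control, for 8 regions at Foxk1, Sox5, Sox6, Foxo3, Foxp2 and Foxd2; each panel has its own axis from 0. The top 4 panels and the Foxp2 panel show no overlap between the groups, the lost Foxo3 regions and the Foxd2 region do, and of the gained regions shown those of Foxk1 and Sox5 stayed called when scaled to the median of the table.

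The FOXP class had 4 gained regions and 1 lost region at 3 of its 4 genes, and 2 of the 4 gained regions stayed above 0 on the table median and TMM scales. The lost region lay 99774 bp outside Foxp2, a repressor known for its part in neural circuits of vocal learning (chr6:15541751-15542500). Scaled counts were 27.6, 25.0, 32.9 and 55.1 in Tbx5G125R animals, against 76.0, 88.2, 98.9 and 73.5 in Control animals. It was the one lost region without overlap. The mean was 35.2 ± 13.7 in Tbx5G125R and 84.2 ± 11.7 in Control animals (SD, n = 4 each), with a log2 fold change of -1.25 ± 0.23 (SE; adjusted p = 1.94e-05 by edgeR). Its distance is close to the limit of 100 kb, and under a limit of 10 kb no lost region would remain among the members.

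Foxp1, a repressor needed for heart valve and outflow tract development in mice, had 1 gained region inside its span (chr6:99443251-99444250) with a log2 fold change of 0.79 ± 0.11 (SE), where Tbx5G125R animals averaged 309 ± 11.9 scaled counts and Control animals 178 ± 32.3 (SD, n = 4 each). Foxp4 had 3. The greatest of them, 12133 bp outside the span (chr17:47854001-47855000), held 102.6, 110.7, 96.8 and 110.2 scaled counts in Tbx5G125R animals, against 47.0, 62.7, 51.0 and 73.5 in Control animals. The lowest Tbx5G125R animal was above the highest Control animal, and the log2 fold change was 0.89 ± 0.18 (SE; adjusted p = 6.78e-05 by edgeR). The other 2 Foxp4 regions, at 0.61 ± 0.17 and 0.63 ± 0.13 (SE), fell below 0 on the table median scale. Foxp3, the regulatory T cell factor, had no region.

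Foxk1, which represses autophagy genes in well-fed muscle cells, had 4 gained regions, 2 of which stayed above 0 on the table median and TMM scales. One of these had the greatest log2 fold change of all 42 regions. It lay 62747 bp outside the gene (chr5:142337751-142338750), with scaled counts of 64.5, 63.5, 68.6 and 71.5 in Tbx5G125R animals and 23.8, 23.2, 26.5 and 27.9 in Control animals. Both groups were tight and far apart. Means were 67.0 ± 3.73 in Tbx5G125R and 25.3 ± 2.22 in Control animals (SD, n = 4 each), a log2 fold change of 1.39 ± 0.22 (SE; adjusted p = 3.52e-06 by edgeR), and the region stayed called on the table median scale at 0.70 (adjusted p = 0.0227 by edgeR). The next region, separated from it by 1500 bp (chr5:142340251-142340750), held 86.8, 62.5, 72.4 and 64.8 scaled counts in Tbx5G125R animals, against 53.4, 23.2, 33.6 and 13.9 in Control animals. The Control animals spread widely here but did not reach the Tbx5G125R animals, and the log2 fold change was 1.07 ± 0.26 (SE; adjusted p = 0.00045 by edgeR). Another region outside the gene, within the long noncoding RNA gene Gm31068, and a region in the Foxk1 span had log2 fold changes of 0.65 ± 0.10 and 0.69 ± 0.14 (SE), both below 0 on the table median scale. Foxk2 had no region.

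Foxj3, which activates Mef2c in mouse skeletal muscle, had 1 gained region, over its start (chr4:119539001-119539750), which also covers the promoter of Frg2f1. Scaled counts were 336.7, 415.7, 343.9 and 370.1 in Tbx5G125R animals, against 233.8, 271.6, 222.3 and 253.4 in Control animals. There was no overlap, and the log2 fold change was 0.61 ± 0.10 (SE; adjusted p = 6.61e-06 by edgeR), and -0.08 on the table median scale. Foxn3, a repressor linked to cell cycle checkpoints, had 1 gained region inside its span that also covers the promoter of Gm51999, with a log2 fold change of 0.74 ± 0.14 (SE). No region was listed for the other 2 FOXJ genes or the other 3 FOXN genes.

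The 27 genes of the remaining forkhead classes, many of them factors of early development, had 7 regions at 6 genes, all gained, and 4 of these stayed above 0 on the table median and TMM scales. Foxd2 had 2. At the region 29280 bp outside the gene (chr4:114876001-114877000, within the long noncoding RNA gene Gm33655) scaled counts were 69.7, 120.3, 156.0 and 236.8 in Tbx5G125R animals, against 54.0, 60.4, 79.5 and 69.7 in Control animals. The Tbx5G125R animals differed more than 3-fold among themselves, and the lowest of them lay within the Control range. The log2 fold change of 1.15 ± 0.23 (SE; adjusted p = 5.92e-05 by edgeR) changed by at most 1.41-fold when single animals were left out, the greatest such change among the 42 regions. The region over the Foxd2 start (chr4:114908751-114909500), shared with the long noncoding RNA gene Foxd2os, held 107.9, 123.2, 109.0 and 89.9 scaled counts in Tbx5G125R animals and 69.0, 65.0, 72.4 and 69.7 in Control animals. Here the groups did not overlap, with a log2 fold change of 0.63 ± 0.17 (SE; adjusted p = 0.00089 by edgeR).

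The other 5 regions of these classes had log2 fold changes between 0.63 and 0.84. They lay 70282 bp from Foxa2, a pioneer factor of the endoderm (0.68 ± 0.15, SE), 3566 bp from Foxb2 (0.75 ± 0.17) and 56607 bp from Foxl1, a factor of gut mesenchyme (0.83 ± 0.26). The region over one end of Foxh1, a partner of SMAD proteins in Nodal signalling, is shared with the neighbouring gene Ppp1r16a (0.63 ± 0.13). The region assigned to Foxf1, a factor of lateral plate mesoderm and lung vessels, lay 97886 bp away, and Control replicate 2 with 74.3 scaled counts overlapped the Tbx5G125R animals, which ran between 69.3 and 84.6 (0.84 ± 0.23).

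SOX group C was the one class with a region at each of its 3 genes, 6 in all, each gained, of which only the 2 of Sox11 stayed above 0 on the table median and TMM scales. Sox4, the group C gene expressed most broadly, had 1 region over its start (chr13:28953501-28954000), which covers the promoter printed above and also the long noncoding RNA gene Gm46405. Its scaled counts were 207.8, 202.1, 177.6 and 189.4 in Tbx5G125R animals, against 109.7, 102.1, 108.6 and 163.4 in Control animals. Control replicate 4 was well above the other Control animals but below every Tbx5G125R animal. The log2 fold change was 0.69 ± 0.14 (SE; adjusted p = 6.4e-05 by edgeR), and -0.0002 on the table median scale. A second region 4052 bp outside the gene had a log2 fold change of 0.68 ± 0.13 (SE).

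At the start of Sox12 (chr2:152397751-152398250) Tbx5G125R animals had 374.9, 433.0, 380.6 and 383.7 scaled counts and Control animals 259.4, 290.2, 273.8 and 309.2. Despite the small log2 fold change of 0.49 ± 0.10 (SE; adjusted p = 3.98e-05 by edgeR) the groups did not overlap. On the table median scale the value was -0.20. A second region began 500 bp further upstream and had a log2 fold change of 0.55 ± 0.10 (SE). Sox11, which with Sox4 is needed for normal outflow tract formation in mice, had 2 regions, neither of them over the gene. The closer, 20768 bp away within the long noncoding RNA gene Gm52005 (chr12:27312751-27313500), held 44.7, 26.9, 38.5 and 51.2 scaled counts in Tbx5G125R animals, against 13.3, 16.2, 22.4 and 15.2 in Control animals. The groups did not overlap, and the log2 fold change was 1.22 ± 0.31 (SE; adjusted p = 0.00059 by edgeR).

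SOX group D had 8 gained regions at 2 of its 3 genes, Sox5 and Sox6, of which 5 stayed above 0 on the table median and TMM scales. All 4 Sox5 regions did so. Sox5 and Sox6 bind as dimers and work together in cartilage. Inside the Sox5 span (chr6:143915751-143916750) lay the SOX region with the lowest p-value, with 169.7, 167.4, 187.9 and 179.8 scaled counts in Tbx5G125R animals, against 81.8, 72.0, 66.8 and 64.6 in Control animals. The animals within each group were close to each other. Means were 176 ± 9.49 in Tbx5G125R and 71.3 ± 7.66 in Control animals (SD, n = 4 each), a log2 fold change of 1.30 ± 0.14 (SE; adjusted p = 1.9e-08 by edgeR), and the region stayed called on the table median scale at 0.61 (adjusted p = 0.0015 by edgeR). A region 2714 bp outside the span (chr6:144785001-144785750) held 96.0, 62.5, 93.0 and 81.2 scaled counts in Tbx5G125R animals, against 51.6, 32.5, 38.7 and 43.1 in Control animals. It showed no overlap, with a log2 fold change of 0.96 ± 0.21 (SE; adjusted p = 0.00012 by edgeR). The remaining 2 Sox5 regions, both in the span, had log2 fold changes of 0.84 ± 0.27 and 0.93 ± 0.19 (SE).

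Sox6, which represses slow fibre genes in mouse skeletal muscle, had 4 regions in its span with unlike changes. Far from the start (chr7:115586751-115587750), scaled counts were 52.6, 58.7, 64.8 and 43.5 in Tbx5G125R animals, against 15.1, 13.9, 30.6 and 22.8 in Control animals. The groups did not overlap at this low level. Means were 54.9 ± 9.10 in Tbx5G125R and 20.6 ± 7.74 in Control animals (SD, n = 4 each), a log2 fold change of 1.34 ± 0.28 (SE; adjusted p = 7.29e-05 by edgeR). At the start (chr7:116030501-116031250), where the printed promoter with the MEF2 motif and the T-box half-site lies, Tbx5G125R animals had 352.5, 423.4, 401.3 and 381.7 scaled counts and Control animals 295.3, 250.7, 274.3 and 295.2. This was the smallest log2 fold change of the 39 gained regions at 0.47 ± 0.10 (SE; adjusted p = 5.47e-05 by edgeR), and -0.22 on the table median scale, though no animals overlapped. The other 2 regions had log2 fold changes of 0.61 ± 0.11 and 0.58 ± 0.14 (SE). Sox13, the other gene of group D, had no region, nor did any of the 13 genes of groups B, E, F, G and H.

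In position, 19 of the 42 regions overlapped the span of their gene, or 45.2%, against 75.8% of the 9273 listed regions that had a protein-coding gene by the same rule (70.2% of all listed regions). The rest, 23 regions, lay outside, and 7 of these overlapped a long noncoding RNA gene. Span lengths, which bear on this share, were not taken into account. Members with a region ranged from Foxb2 (1515 bp) to Sox5 (953863 bp), and in SOX group D 87.5% of regions were inside. Any promoter window was overlapped by 8 regions (19.0%), against 28.0% of those 9273, and a start within 1000 bases by 10 (23.8%), against 31.0%. Foxk1, Foxo6, Foxh1, Foxf1, Foxl1 and Foxp2 had no promoter sequence, so their regions could not count as over their own start. How many of the other protein-coding genes lacked a promoter sequence was not counted, so these shares do not compare the families with other genes. The 3 lost regions were all outside. The 7 regions over a start of their own gene had log2 fold changes between 0.47 and 0.86, so that each of them was below the 0.89 of the upper quartile. The genes with a region made up 31.7% of the 63, against 27.8% of all 21900 protein-coding genes.

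The median mean level of gained regions was 180 scaled counts in Tbx5G125R animals and 115 in Control animals, beside 200 and 119 over all gained regions. Among the members, each of the 6 gained regions with a log2 fold change of 1 or more averaged at most 71.3 scaled counts in Control animals.

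**Figure D4:**
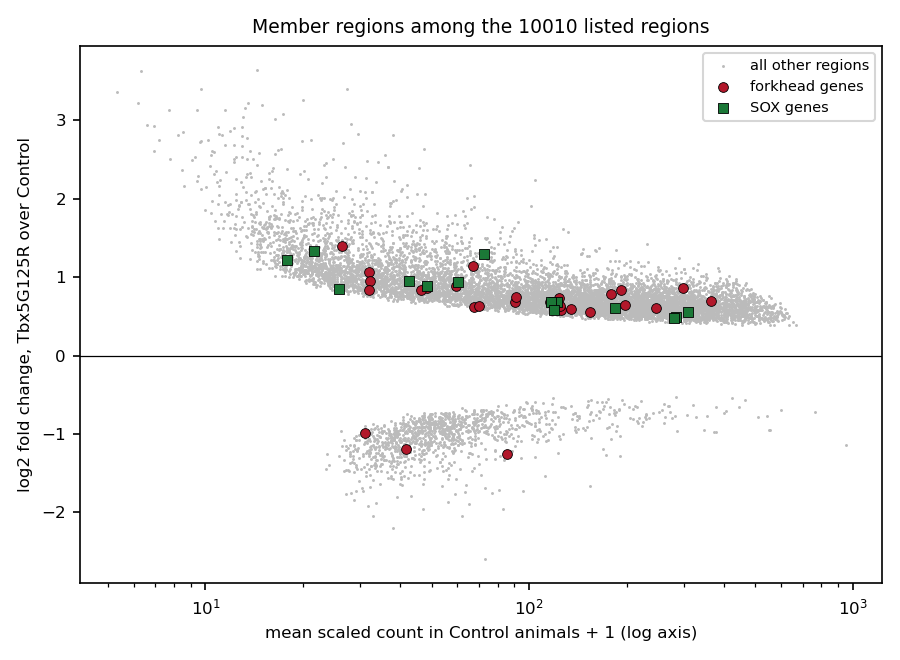
Log2 fold change, Tbx5G125R over Control, against the mean scaled count in Control animals plus 1 (log axis) for the 10010 listed regions, with forkhead regions as red circles and SOX regions as green squares. The empty band around 0 is left by the selection of the regions, and on the table median scale 18 of the 39 gained members lie below 0.

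Just inside the distance limit were the regions of Foxf1 (97886 bp) and Foxp2 (99774 bp), with log2 fold changes of 0.84 and -1.25. Just outside it were 2 regions whose nearest gene is Sox9, a group E factor needed for heart valves and cartilage. One, 142244 bp away (chr11:112930001-112931000), averaged 73.3 ± 15.3 scaled counts in Tbx5G125R and 34.0 ± 5.01 in Control animals (SD, n = 4 each), a log2 fold change of 1.12. The other, 164710 bp away on the other side (chr11:112616751-112617500), averaged 39.0 ± 9.70 in Tbx5G125R and 81.0 ± 14.7 in Control animals (SD, n = 4 each), a log2 fold change of -1.04.

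Genes that act on or with these factors were counted by the same rule, and their counts stand beside 27.8% of all protein-coding genes with a region and 88.4% of all regions gained, a direction the selection had set in advance. Of 18 regulators upstream of FOXO, 12 had regions, 15 gained and 5 lost. On the table median and TMM scales 7 of the 20 regions were above 0, none was called higher and 5 were called lower. Over all listed regions, 8.55% were called higher and 12.3% lower on the table median scale. The lost regions lay at Pik3ca, the catalytic subunit of phosphoinositide 3-kinase (2 regions, down to -1.28 ± 0.32, SE), Insr, the insulin receptor (-1.21 ± 0.37, with overlapping groups), Irs2, an insulin receptor substrate (-1.08 ± 0.32), and Igf1r, the receptor for insulin-like growth factor (-0.91), the last named after its value was seen. Irs2 also had a gained region (0.58) and Igf1r 2 gained regions (up to 1.03). The median of the 15 gained regions was 0.69 on the log2 scale, beside 0.75 over all gained regions of the table, and that of the 5 lost ones was -1.17, beside -0.97. Of 22 FOXO target genes, 17 had regions, 28 gained and none lost, of which 14 stayed above 0 on the table median scale and 13 with TMM. On both of these scales none of the 28 was called higher and 1 was called lower. The greatest changes were at Cat, which encodes catalase (1.54 ± 0.33, SE), Txnip, an inhibitor of thioredoxin (1.10 ± 0.16), and Ccng2, an atypical cyclin (0.92 ± 0.12). The Cat region averaged only 13.1 scaled counts in Control animals, against 150 at Txnip and 220 at Ccng2. The median of the 28 regions was 0.69. Fbxo32 and Trim63, the muscle ubiquitin ligase genes, had 3 and 2 gained regions.

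Of 11 partners of FOXP, which were corepressors and NFAT factors, 5 had 8 gained regions between them. On the table median and TMM scales 4 of these stayed above 0 and 1 stayed called. Nfatc2, a calcium-dependent factor that pairs with FOXP proteins in T cells and is not a corepressor, had 4 of the 8 (up to 1.13 ± 0.15, SE). Of 22 partners and targets of SOX factors, 10 had 16 gained regions, 12 of which stayed above 0 on the table median scale (10 with TMM) and 4 of which stayed called, where 8.55% of all regions were called higher on the table median scale. The greatest changes were at the Wnt effectors Lef1 (1.83 ± 0.34, SE) and Tcf7l1 (1.63 ± 0.31) and at Ccnd1, which encodes cyclin D1 (1.61 ± 0.12). The Lef1 and Tcf7l1 regions averaged only 13.4 and 18.6 scaled counts in Control animals, against 127 at Ccnd1. The median was 0.73 over the 8 regions of FOXP partners and 0.77 over the 16 regions of SOX partners and targets. The cartilage genes Col2a1, Acan and Comp had no region.

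Several members are known from cells other than cardiomyocytes, so markers of such cells were counted too. Their counts stand beside 22.9% of all gained regions with a log2 fold change of 1 or more. On the table median scale 8.55% of all regions were called higher. All 11 cardiomyocyte markers had regions, 57 gained and 10 lost, the lost ones all at Ryr2. On the log2 scale the median of the gained ones was 0.80, with 14.0% at 1 or more, and 40 of them stayed above 0 and 6 stayed called on the table median scale. Summed over the list, scaled counts ran from 18690 to 20846 in Tbx5G125R animals and from 11472 to 11694 in Control animals. Of 13 endothelial markers, 3 had regions (9 gained at Kdr, 1 gained at Pecam1 and 4 lost at Npr3), while Cdh5, Tek, Sox17 and Sox18 had none. The 10 gained endothelial regions had a median of 1.28, above the 0.74 of the members, with 80% at 1 or more, and 9 stayed above 0 and 4 stayed called on the table median scale. The list's sum ran from 1389 to 1462 scaled counts in Tbx5G125R animals and from 694 to 909 in Control animals.

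Of 11 fibroblast markers, 2 had 3 gained regions with a median of 1.00, of which 2 stayed above 0 on the table median scale and none stayed called. Sums were 495 to 562 in Tbx5G125R animals and 294 to 341 in Control animals, and Pdgfra, Tcf21 and Col1a1 had no region. Of 10 smooth muscle and pericyte markers, 3 had 3 gained regions (median 0.75, 2 above 0 and none called on the table median scale) and 1 lost region, with sums of 584 to 608 in Tbx5G125R animals and 368 to 480 in Control animals. No region was listed at the 10 leukocyte markers, Foxp3 among them. Of 8 Schwann and neural markers, 3 had 16 gained regions, 13 of them at Mbp, while Sox10 had none. Their median was 0.98. On the table median scale 15 stayed above 0 and 2 stayed called, where 8.55% of all regions were called higher. Sums were 1965 to 2280 in Tbx5G125R animals and 1019 to 1130 in Control animals. Of 7 epicardial and fat markers, Lep alone had 1 gained region (1.08, above 0 but not called on the table median scale), at 47.4 to 75.0 scaled counts in Tbx5G125R animals and 19.4 to 44.1 in Control animals. A gene without a listed region may still have open chromatin. The part of other cells in the values at forkhead and SOX genes was not tested.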

How the data were processed

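ATAC-seq reads of 10 libraries from 8 animals were processed by the authors, whose processing notes name BWA, bedtools, DESeq2 and the build mm10, without versions. The authors deposited raw read counts per library for 10010 regions built from 500 bp bins. Whether a count covers a whole region or a bin, and whether duplicates were removed and reads shifted for the transposase, are points not given in the sources used here. In 4 libraries the deposited values were estimated counts in form only, a count of 0 being written as 0.1 (26 values), and were rounded back. The table also held a signal per group, which the authors made as geometric means of raw counts and which was not used. The deposited log2 fold changes served only to set the scale, and the authors' deposited adjusted p-values were not used. Neither was printed.

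Libraries of one animal were summed, since their chi-square per degree of freedom was 1.62 to 1.67, beside 2.01 to 4.29 between animals of a group. Animals were scaled within each genotype by median ratios. Because the geometric means were not normalized, one offset was placed between the genotypes, 0.29 on the log2 scale (1.23-fold), the value that best matched the deposited fold changes (residual SD 0.033). The calls are therefore not independent of the authors' own. A second offset, from the middle of the empty gap in the fold changes, was 0.23. It is not free of the authors' comparison either, since their selection leaves the gap, and it fixes each region's sign in advance. Each region was tested with edgeR 4.0.16 (R 4.3.3), quasi-likelihood, 4 against 4 animals, no covariate, Benjamini-Hochberg over 10010 regions at 0.05. Because the correction ran only over regions already selected on these animals, the adjusted p-values are not error rates. The biological coefficient of variation was 11.5%. Nothing says whether animals came from separate litters or days, so p-values measure the spread between these animals. The script was tested on simulated data.

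Members and gene lists were chosen with earlier results of these data known. Values per animal are given for lost regions, the most changed region of genes with 3 or more, the 10 most changed regions and those over a member's promoter; for other lists, counts and up to 3 most changed genes. Other genes of those lists, named with counts or as having no region, were chosen after their values were seen. Some single-gene results are not reported here. Coordinates are mm10, 1-based. Gene spans and promoters are from RefSeq (GRCm38.p6), with more than 1 promoter for some genes and none for others. Alternatives covered limma 3.58.1 on log2(scaled count + 1), with pseudocounts of 0.1 and 5, DESeq2 1.42.0, the scale, a mean count of at least 20, the first library only, the replicate number, left-out animals, a threshold of 0.01, the distance limit and the promoter window. Summaries used Python 3.11.15 with scipy 1.17.1.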

Additional observations from a re-analysis of the deposited data

Results flagged for a closer look

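In 5 of the 84 groups of 4 animals at the member regions, 1 animal stood far from the other 3 by Dixon's gap test, which chance gives in about 1 of 20 groups. Over the start of Sox12, Tbx5G125R replicate 2 had 433 scaled counts, where the other Tbx5G125R animals had 375 to 384. Over the start of Sox4, Control replicate 4 had 163, where the other Control animals had 102 to 110. At the Foxk1 region 33497 bp outside the gene, Tbx5G125R replicate 2 had 286, below the 316 to 320 of its group. At the Foxo1 region 71837 bp upstream, Tbx5G125R replicate 1 had 128, against 70.6 to 75.1 in its group. At the Foxb2 region, Control replicate 2 had 111, against 80.6 to 84.9 in the other Control animals. None of these 5 regions lost its call or turned its direction without that animal.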

How the results depend on the processing

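The direction and call of all 42 regions were the same with limma, its pseudocounts of 0.1 and 5, DESeq2, a mean count of 20 or more, the first library only, the replicate block and each left-out animal (39 higher and 3 lower throughout), and at a threshold of 0.01. All of these settings kept the offset of 0.29 taken from the deposited fold changes. The regions had also been selected on these same animals, so this agreement was largely set in advance. Over the whole table limma called 8846 regions higher and 1155 lower, against 8846 and 1164 with edgeR. The members' calls also held on the gap scale, where the authors' selection fixes the signs in advance. The highest adjusted p without 1 animal was 0.0355 by edgeR (Foxo3, 80095 bp). Same-numbered animals deviated together only in part (r of 0.17, -0.00073, 0.069 and 0.029 for numbers 1 to 4), so the numbers were not taken as pairs, and the replicate block left 39 and 3 calls. Called higher were 2 regions on the table median scale and 2 with TMM, beside 856 and 805 of all 10010 regions. Without scaling, 1 region was called lower, where 216 of all regions were, against 1164 with the offset. With a limit of 10 kb 26 regions were higher and 0 lower, and with spans only 19 were higher and 0 lower. A window of 1000 bases around the start took in 9 of the genes' own regions, beside 7.

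Reversed on the table median scale, and next to it with TMM, were these log2 fold changes: Sox12 -0.2023 and -0.216 at the start and -0.1353 and -0.1494 upstream, Sox4 -0.0002 and -0.0142 at the start and -0.0075 and -0.0216 outside, Sox6 -0.0799 and -0.0943, -0.2156 and -0.2297, and -0.1093 and -0.1237, Foxj3 -0.0841 and -0.0978, Foxk1 -0.0437 and -0.0581 outside and -0.0033 and -0.0171 inside, Foxo1 -0.1091 and -0.1238, Foxo6 -0.1017 and -0.1158 inside and -0.1321 and -0.1466 outside, Foxp4 -0.075 and -0.0893 inside and -0.0589 and -0.0733 outside, Foxa2 -0.0097 and -0.0238, Foxd2 -0.0624 and -0.0765, Foxh1 -0.0632 and -0.0779, and with TMM alone the Foxo6 region 240 bp away at -0.0112. Both scales place the middle of a table of mostly gained regions at 0, which shifts every value down. Library totals, which would set the scale, were not used here. At the lost regions few reads limit precision.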
